A study of Danio rerio with 6 samples.

Results

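The 48 genes described here are cell cycle genes of larval zebrafish, grouped by the phase in which their products act, and they were measured in single sorted cells of injured muscle and of uninjured larvae. They were matched by gene symbol, ignoring case, and where a symbol was absent by the symbol without its final a or b. In this way 40 of the 48 were found, at 43 of the 25130 gene identifiers in the files, because MCM6, RRM2 and STMN1 each stand at 2 identifiers. Of these identifiers 17 belong to S-phase genes, 22 to mitosis genes and 4 to the chromatin and tubulin genes h2ax, hmgb2b and STMN1, which are also expressed outside the cycle and entered no sum. The genes mcm2, mcm7, dut, ube2c, cdc20, ccnd1, ccne2 and hmgb2a had no match and are not analysed here. Many symbols in the identifier table are those of the human counterpart.

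Live mCherry-positive cells of TL larvae carrying Tg(mpeg1:mCherry), which labels with red fluorescence the cells that use the promoter of mpeg1, a pore-forming protein gene of macrophages, were sorted into 384-well plates and read by SORT-seq, a plate form of CEL-Seq2 that counts transcripts from their 3' ends. All larvae carried the transgene and were raised in 1-phenyl-2-thiourea, which blocks pigment. The injured groups came from dissected trunk muscle after a needle puncture at 4 days post fertilisation: 2 libraries at 1 day post injury (dpi, larvae 5 days old), 1 library at 2 dpi (6 days old) and 2 libraries at 3 dpi (7 days old). The uninjured group was 1 library from whole larvae at 4 days, so injury, tissue and age cannot be told apart in any comparison with it. Larvae of each later time point were also older, and no uninjured library had their age. Time after injury and larval age therefore cannot be told apart in any comparison between time points. Nothing in the labels says that the libraries of a time point came from separate groups of larvae, and every p-value reflects only how these libraries spread, which may be technical.

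A cell that divides first copies its DNA in S phase and then separates the copies in mitosis. S phase uses the MCM helicase that opens DNA, the PCNA clamp that holds the polymerases, the RPA proteins that coat single strands and the enzymes that make nucleotides. Mitosis is driven by the kinase CDK1 with its B-type cyclins, and needs condensins that pack chromosomes, kinesins and aurora kinases that build the spindle, and the checkpoint proteins that hold anaphase back. Tissue macrophages can divide in place, whereas mature neutrophils, the other phagocytes of an early wound, are generally regarded as non-dividing.

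The 6 libraries kept 209 to 364 wells with at least 500 transcripts each, 1820 of 2304 in all, and held 1362383 to 8340924 transcripts. Median totals per well were 5369 in the uninjured library, 3016 and 8095 at 1 dpi, 10897 in the 2 dpi library, and 3430 and 3651 at 3 dpi. A well of a deep library reaches any fixed number of transcripts more easily, so each well with at least 1000 transcripts was also thinned at random to 1000. Large wells weigh on the uninjured library most: 18 of its wells exceeded 50000 transcripts and contained 70.1% of that library's transcripts and 57.8% of its S-phase and mitosis transcripts. At 2 dpi 1 such well contained 1.21% of the library's transcripts and 9.70% of its S-phase and mitosis transcripts. None of the 18 uninjured wells held 3 transcripts of either phase once thinned, so the CPM of the uninjured library (counts scaled to the library total) weighs few wells heavily.

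Summed S-phase and mitosis transcripts were both lower at 3 dpi than at 1 dpi. The S-phase sum was 369 CPM in the uninjured library, 781 and 805 CPM at 1 dpi, 380 CPM at 2 dpi, and 239 and 307 CPM at 3 dpi. The mitosis sum was 351 CPM in the uninjured library, 293 and 570 CPM at 1 dpi, 361 CPM at 2 dpi, and 79.9 and 117 CPM at 3 dpi. Both 3 dpi libraries lay below every other library in both sums, and the single 2 dpi library lay below both 1 dpi libraries in the S-phase sum but between them in the mitosis sum. Leaving out the wells over 50000 transcripts moved the uninjured sums to 545 and 471 CPM, S phase and mitosis in that order, and the 2 dpi sums to 354 and 324 CPM.

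**Figure D1:**
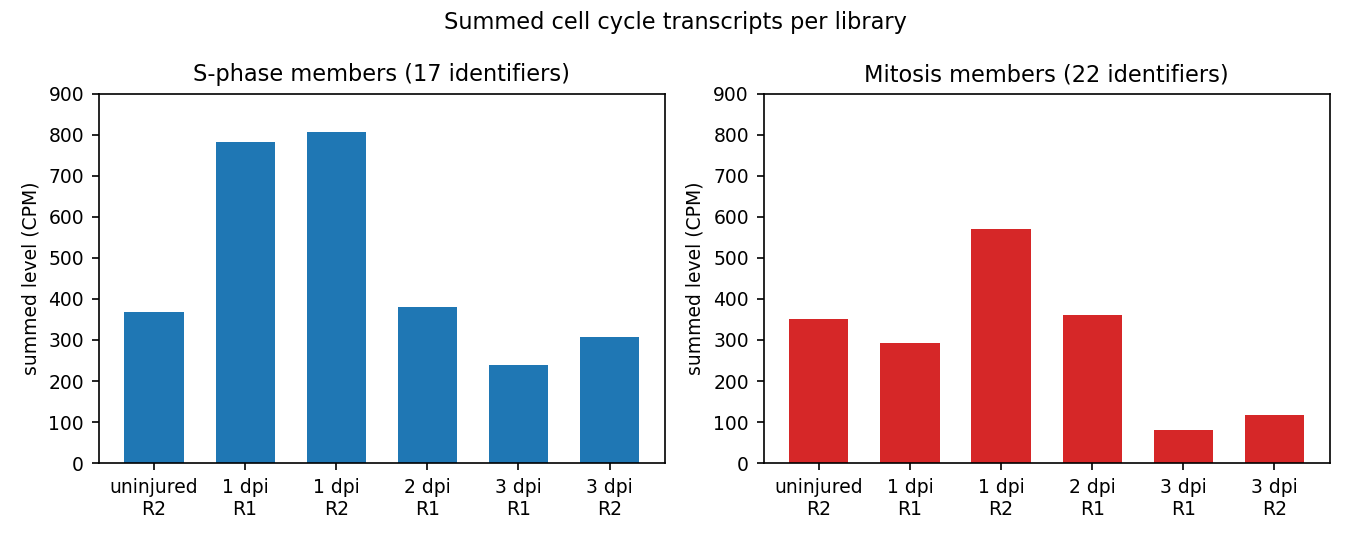
Summed level of the 17 S-phase identifiers (left) and the 22 mitosis identifiers (right) in each library, in CPM; each bar is 1 library. Both 3 dpi bars, at 239 and 307 CPM for S phase and 79.9 and 117 CPM for mitosis, are the lowest of their panel.

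In thinned wells S-phase transcripts outnumbered mitosis transcripts most at 3 dpi, where few mitosis transcripts were left. No mitosis transcript remained in 240 of 251 and 286 of 300 thinned wells at 3 dpi. In thinned wells the ratio of the S-phase to the mitosis sum was 1.08 in the uninjured library, 2.63 and 1.84 at 1 dpi, 1.49 in the 2 dpi library, and 3.93 and 3.90 at 3 dpi. On the CPM scale the 3 dpi ratios were 2.99 and 2.63, the second of them below the 2.67 of replicate 1 at 1 dpi, so the libraries overlapped on that scale. PCNA alone supplied between 38.5% and 56.9% of the S-phase sum. In replicate 2 of 3 dpi GMNN supplied 118 of the 447 S-phase counts, and the ratio without it was not tested.

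Fewer wells were in cycle at 3 dpi than at 1 dpi. A well was counted as cycling when it held 3 or more S-phase or 3 or more mitosis transcripts after thinning to 1000. Of thinned wells, 22 of 294 were cycling in the uninjured library (7.48%, exact Clopper-Pearson 95% interval 4.75% to 11.1%). At 1 dpi 32 of 266 wells (12%, 8.38% to 16.6%) and 26 of 196 wells (13.3%, 8.85% to 18.8%) were cycling. The single 2 dpi library had 19 of 352 cycling wells (5.40%, 3.28% to 8.30%). At 3 dpi the count was 4 of 251 wells (1.59%, 0.436% to 4.03%) in replicate 1 and 5 of 300 wells (1.67%, 0.543% to 3.85%) in replicate 2. These intervals cover counting error only, and they do not overlap between the libraries of 3 dpi and those of 1 dpi. The mean share was 1.63% ± 0.05 at 3 dpi and 12.6% ± 0.87 at 1 dpi (SD, n = 2 libraries each), a difference of -11.0 percentage points against a pooled SD of 0.62. A two-sided exact permutation test over libraries gave p = 0.333, the smallest value that 2 libraries against 2 allow, so this design cannot pass a threshold of 0.05.

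Without thinning the 3 dpi libraries were again the lowest, but the order of the other libraries was not the same. With all transcripts counted, the share of cycling wells was 34.3% in the uninjured library, 31.1% and 47.4% at 1 dpi, 32.4% in the 2 dpi library, and 12% and 16.0% at 3 dpi. There the deeply read 2 dpi library lay between the 1 dpi libraries, while in thinned wells it lay below both of them. With wells thinned to 2000, 6.12% were cycling at 2 dpi, and 2.99% and 6.77% at 3 dpi, so replicate 2 of 3 dpi was then above the 2 dpi library, while both stayed below the 22.6% and 25% at 1 dpi.

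**Figure D2:**
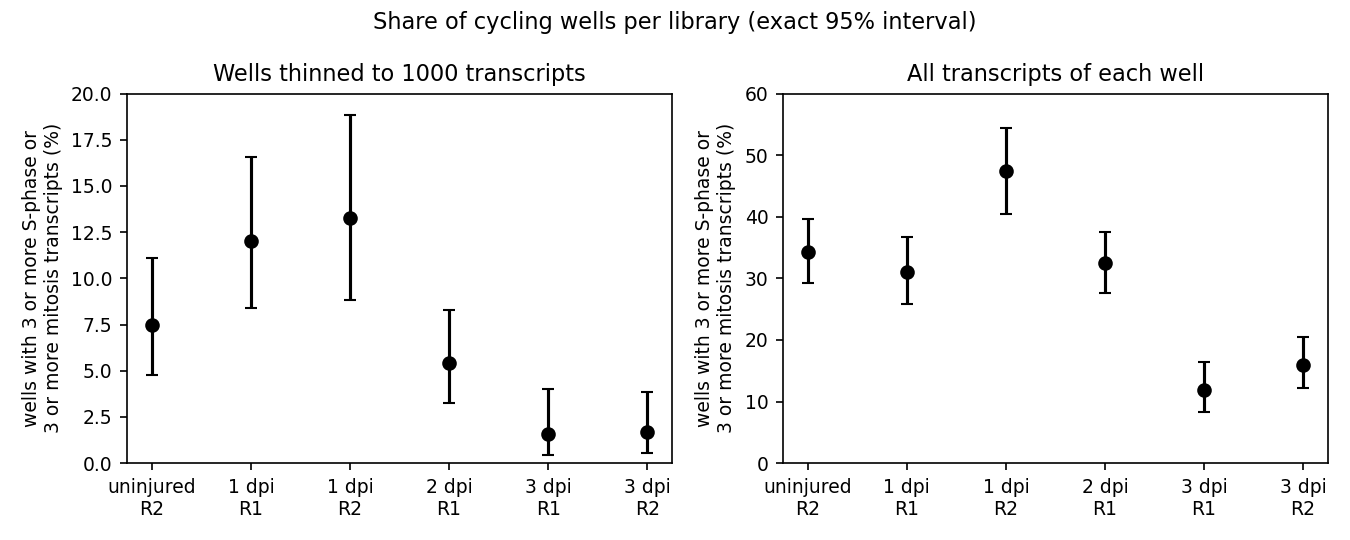
Percentage of wells with 3 or more S-phase or 3 or more mitosis transcripts in each library, after thinning every well to 1000 transcripts (left) and with all transcripts (right); points are libraries and bars exact 95% intervals. In both panels the 3 dpi libraries are the lowest, at 1.59% and 1.67% thinned and 12% and 16.0% unthinned.

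Both phases contributed to the lower share. S-phase wells, those with 3 or more S-phase transcripts, made up 4.42% of thinned wells in the uninjured library, 9.60% ± 1.31 at 1 dpi, 3.41% in the 2 dpi library and 1.43% ± 0.33 at 3 dpi. Mitosis wells made up 3.06% in the uninjured library, 3.87% ± 1.75 at 1 dpi, 1.99% in the 2 dpi library and 0.37% ± 0.05 at 3 dpi. The differences between 3 and 1 dpi were -8.17 and -3.50 percentage points (3 dpi minus 1 dpi, SD over n = 2 libraries each, exact permutation p = 0.333 for both, the smallest possible). At 3 dpi 1 well in each library passed the mitosis threshold, so a ratio of shares between the phases cannot be read from these counts. Without PCNA in the sums, an alternative chosen after seeing the data, the difference in the S-phase share was -3.27 and that in the cycling share -6.39 percentage points.

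In wells thinned to 1000, with 3 or more transcripts as the threshold, the share of cycling wells was lower at 3 dpi. In that setting the transcripts per cycling well were not lower. A cycling well held a mean of 5.14 S-phase plus mitosis transcripts per 1000 in the uninjured library, 5.44 and 4.31 at 1 dpi, 5.26 in the 2 dpi library, and 5.50 and 6.00 at 3 dpi. The mean over libraries was 5.75 ± 0.35 at 3 dpi and 4.87 ± 0.80 at 1 dpi, a difference of 0.88 (SD, n = 2 each, exact permutation p = 0.333), while the threshold of 3 sets a floor under every such value. The mean over all wells at 3 dpi was 0.280 of that at 1 dpi. The sign of the difference in level was not stable, at -0.62 with 2 or more transcripts as the threshold, -0.30 with wells thinned to 2000 and -9.11 without thinning, whereas the share of cycling wells was lower at 3 dpi in each of these.

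Wells below the threshold also held fewer cell cycle transcripts at 2 and 3 dpi than at 1 dpi. They averaged 0.489 S-phase plus mitosis transcripts per 1000 in the uninjured library, 0.483 and 0.576 at 1 dpi, 0.201 in the 2 dpi library, and 0.190 and 0.231 at 3 dpi. Cycling wells carried 45.9% of all S-phase and mitosis transcripts of thinned wells in the uninjured library, 60.6% and 53.3% at 1 dpi and 59.9% at 2 dpi. At 3 dpi they carried 31.9% and 30.6%, which rests on 4 and 5 wells.

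How the change was spread over the steps depended on the depth and the threshold. The share of cycling wells at 2 dpi was 0.427 of that at 1 dpi as defined here, 0.257 with wells thinned to 2000 and 0.339 with 2 or more transcripts as the threshold. The share at 3 dpi was 0.302 of that at 2 dpi as defined here, but 0.797 thinned to 2000 and 0.730 with 2 or more transcripts. Against 1 dpi the share at 3 dpi was 0.129, 0.205 and 0.247 under the same 3 settings, while the level per cycling well was 1.18, 0.957 and 0.836 times that at 1 dpi. The level in other wells at 3 dpi was 0.397, 0.656 and 0.425 times that at 1 dpi. The ratios at the other depth and threshold were added after seeing the data, and those of the single 2 dpi library carry no replicate error.

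Gene by gene, 17 of the 39 identifiers that passed the filter on low counts were lower at 3 dpi than at 1 dpi and none was higher (edgeR quasi-likelihood test on counts summed per library, Benjamini-Hochberg adjusted p under 0.05). Over all 13901 genes tested, 3.47% were called lower and 5.55% higher. The 17 were 6 of 14 tested S-phase identifiers, 9 of 21 for mitosis and 2 of 4 for chromatin and tubulin. Their tested members had median log2 fold changes of -1.85 (S phase), -2.39 (mitosis) and -1.84 (chromatin and tubulin), against 0.28 over all genes. Libraries decide this count. Leaving out 1 library of 1 or 3 dpi changed the number of calls, both for the members and for all genes. The median over the members was then -2.23 without replicate 1 and -2.03 without replicate 2 of 1 dpi. It was -2.12 without replicate 1 and -2.10 without replicate 2 of 3 dpi. Fitted on the 4 libraries of 1 and 3 dpi alone the test called 0 members (26 at an unadjusted p under 0.05) and 0 of all 8731 genes. Here and below, the share of all genes at an unadjusted p under 0.05 is not given. Such counts therefore cannot be set against a background. With library size in place of TMM scaling it called 2 members and 73 of all 13901 genes. DESeq2 called 9 members and 565 of all 13901 genes. The median over the members stayed between -2.23 and -1.85 in all of these fits and in the other alternatives tried.

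**Figure D3:**
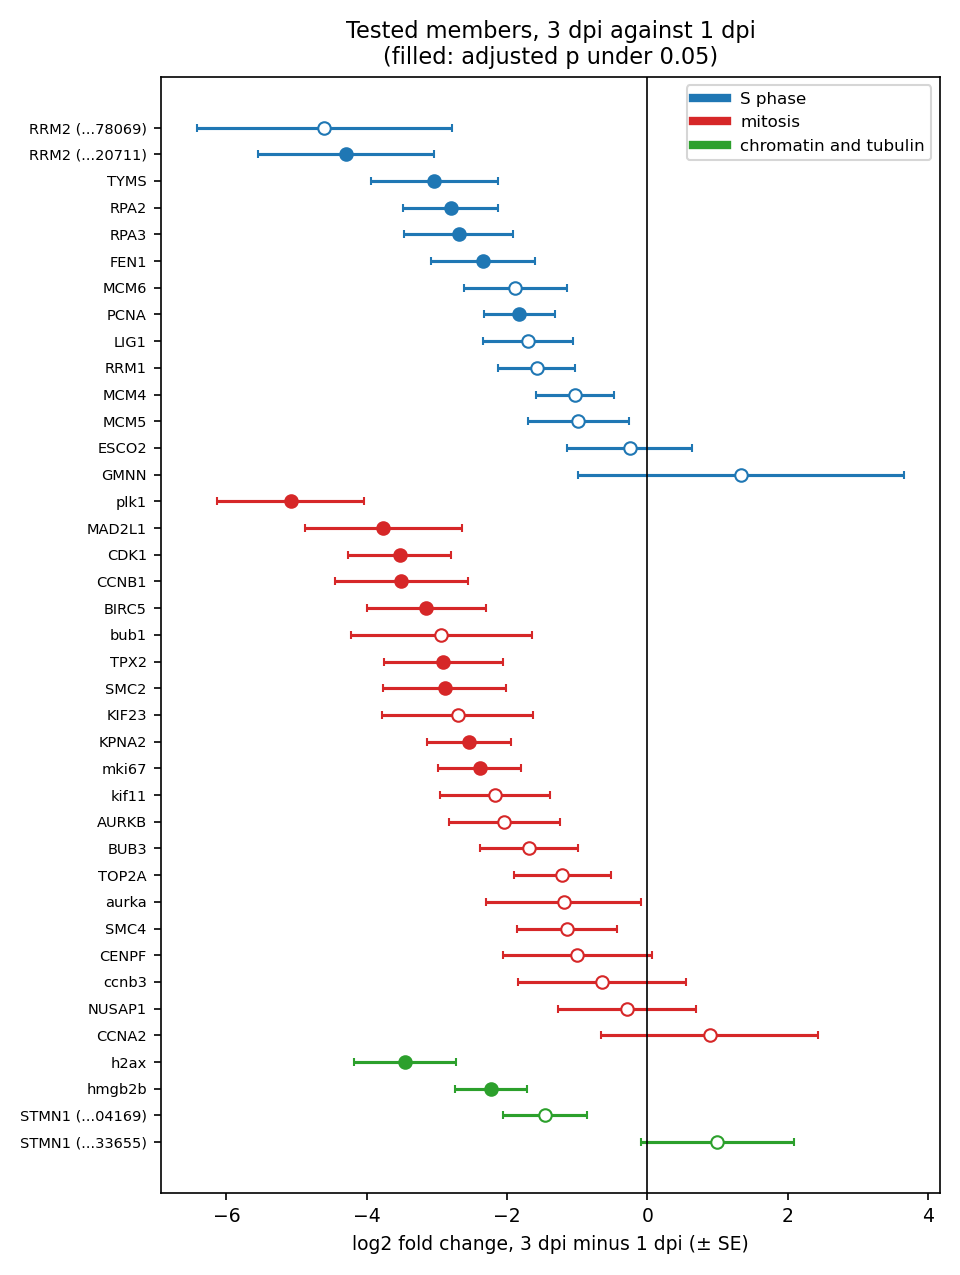
Log2 fold change of each tested member, 3 dpi minus 1 dpi, with its standard error, ordered within phase; filled points have an edgeR adjusted p under 0.05. All 17 filled points lie below 0, and the 3 points above 0, GMNN, CCNA2 and STMN1 (ENSDARG00000033655), are open.

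Among the genes of the replication fork, PCNA and the RPA subunits fell. PCNA (ENSDARG00000054155), the sliding clamp, stood at 158 CPM in the uninjured library, 444 and 395 CPM at 1 dpi, 148 CPM at 2 dpi, and 125 and 118 CPM at 3 dpi. Both 3 dpi libraries lay far below both 1 dpi libraries, with a log2 fold change of -1.82 (SE 0.51, edgeR adjusted p = 0.0167). A PCNA transcript was found in 13.6% of thinned wells of the uninjured library, 21.1% and 20.9% at 1 dpi, 6.25% in the 2 dpi library, and 7.57% and 7.00% at 3 dpi. RPA2 (ENSDARG00000037188), a subunit of the single-strand binding protein, was at 18.3 CPM in the uninjured library, 44.0 and 46.3 CPM at 1 dpi, 17.2 CPM at 2 dpi, and 4.24 and 9.60 CPM at 3 dpi. Its change from 1 to 3 dpi was -2.80 (SE 0.68, edgeR adjusted p = 0.00611). RPA3 (ENSDARG00000002613), a second subunit, was at 11.5 CPM in the uninjured library, 33.0 and 34.2 CPM at 1 dpi, 8.28 CPM at 2 dpi, and 0.707 and 11 CPM at 3 dpi, a change of -2.69 (SE 0.78, edgeR adjusted p = 0.0207). The 3 dpi libraries differed widely in it, yet neither reached the 1 dpi values.

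The flap nuclease gene FEN1 (ENSDARG00000011404), which trims the joins of the lagging strand, had 14.6 CPM in the uninjured library, 32.3 and 30.1 CPM at 1 dpi, 12.5 CPM at 2 dpi, and 7.07 and 5.49 CPM at 3 dpi. Its log2 fold change was -2.34 (SE 0.74, edgeR adjusted p = 0.0339). LIG1 (ENSDARG00000060041), the ligase that seals those joins, had 29.3 CPM uninjured, 32.3 and 40.5 CPM at 1 dpi, 20.4 CPM at 2 dpi, and 14.1 and 8.23 CPM at 3 dpi. Its libraries of 3 and 1 dpi did not overlap, but its change of -1.70 did not pass the test (edgeR adjusted p = 0.0748).

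The helicase genes were not called. MCM4 (ENSDARG00000040041) had 30.2 CPM uninjured, 46.2 and 50.4 CPM at 1 dpi, 37.6 CPM at 2 dpi, and 28.3 and 19.2 CPM at 3 dpi. MCM5 (ENSDARG00000019507) had 13.9 CPM uninjured, 22 and 24.3 CPM at 1 dpi, 11.2 CPM at 2 dpi, and 13.4 and 10.3 CPM at 3 dpi. The better covered MCM6 identifier (ENSDARG00000057683) had 17.4 CPM uninjured, 27.2 and 24.9 CPM at 1 dpi, 13 CPM at 2 dpi, and 7.07 and 7.55 CPM at 3 dpi. Each was lower in both 3 dpi libraries than in both 1 dpi libraries, with log2 fold changes of -1.03, -0.98 and -1.88 and edgeR adjusted p-values of 0.225, 0.379 and 0.0861. MCM3 and the other MCM6 identifier (ENSDARG00000033231) had at most 2.2 and 5.65 CPM in any library and did not pass the filter.

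Of the genes of nucleotide supply, TYMS and 1 RRM2 identifier fell. TYMS (ENSDARG00000042894), thymidylate synthase, was at 7.43 CPM in the uninjured library, 16.9 and 28.9 CPM at 1 dpi, 7.61 CPM at 2 dpi, and 3.53 and 2.06 CPM at 3 dpi, a change of -3.04 (SE 0.91, edgeR adjusted p = 0.0241). RRM1 (ENSDARG00000014017), the large subunit of ribonucleotide reductase, was at 39.0 CPM uninjured, 52.8 and 64.8 CPM at 1 dpi, 41.2 CPM at 2 dpi, and 20.5 and 19.9 CPM at 3 dpi. Its change of -1.58 missed the threshold (SE 0.55, edgeR adjusted p = 0.0528) although the libraries of 3 and 1 dpi lay apart. For the small subunit RRM2, the identifier ENSDARG00000020711 was at 4.44 CPM uninjured, 10.3 and 18.5 CPM at 1 dpi, 3.58 CPM at 2 dpi, and 1.41 and 0 CPM at 3 dpi. It passed the test (edgeR adjusted p = 0.0215) on 2 counts at 3 dpi against 46 at 1 dpi, which is 21.4-fold lower with a 95% counting interval of 5.59 to 182. Here and below such an interval pools the libraries of a time point and leaves out the spread between wells and between libraries. The other RRM2 identifier (ENSDARG00000078069), with 1 count against 27, was not called (edgeR adjusted p = 0.0884).

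The licensing gene GMNN and the cohesion gene ESCO2 were not called. GMNN (ENSDARG00000035957), which keeps an origin from firing again in the same cycle, had 13.7 CPM uninjured, 1.47 and 26.1 CPM at 1 dpi, 32.5 CPM at 2 dpi, and 1.41 and 80.9 CPM at 3 dpi. Libraries of the same time point differed more than the time points did, and the change of 1.34 had an SE of 2.32 (edgeR adjusted p = 0.772). It became -3.09 when replicate 2 of 3 dpi was left out. In replicate 2 of 1 dpi 1 well held 64.4% of its 45 counts, and at 2 dpi 1 well held 51.0% of its 145 counts. ESCO2 (ENSDARG00000014685), an acetyltransferase for cohesin, had 7.79 CPM uninjured, 5.87 and 7.53 CPM at 1 dpi, 21.0 CPM at 2 dpi, and 4.95 and 6.86 CPM at 3 dpi, with no difference beyond the spread between 3 and 1 dpi (edgeR adjusted p = 0.880). CDT1 had at most 2.06 CPM and was not tested.

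**Figure D4:**
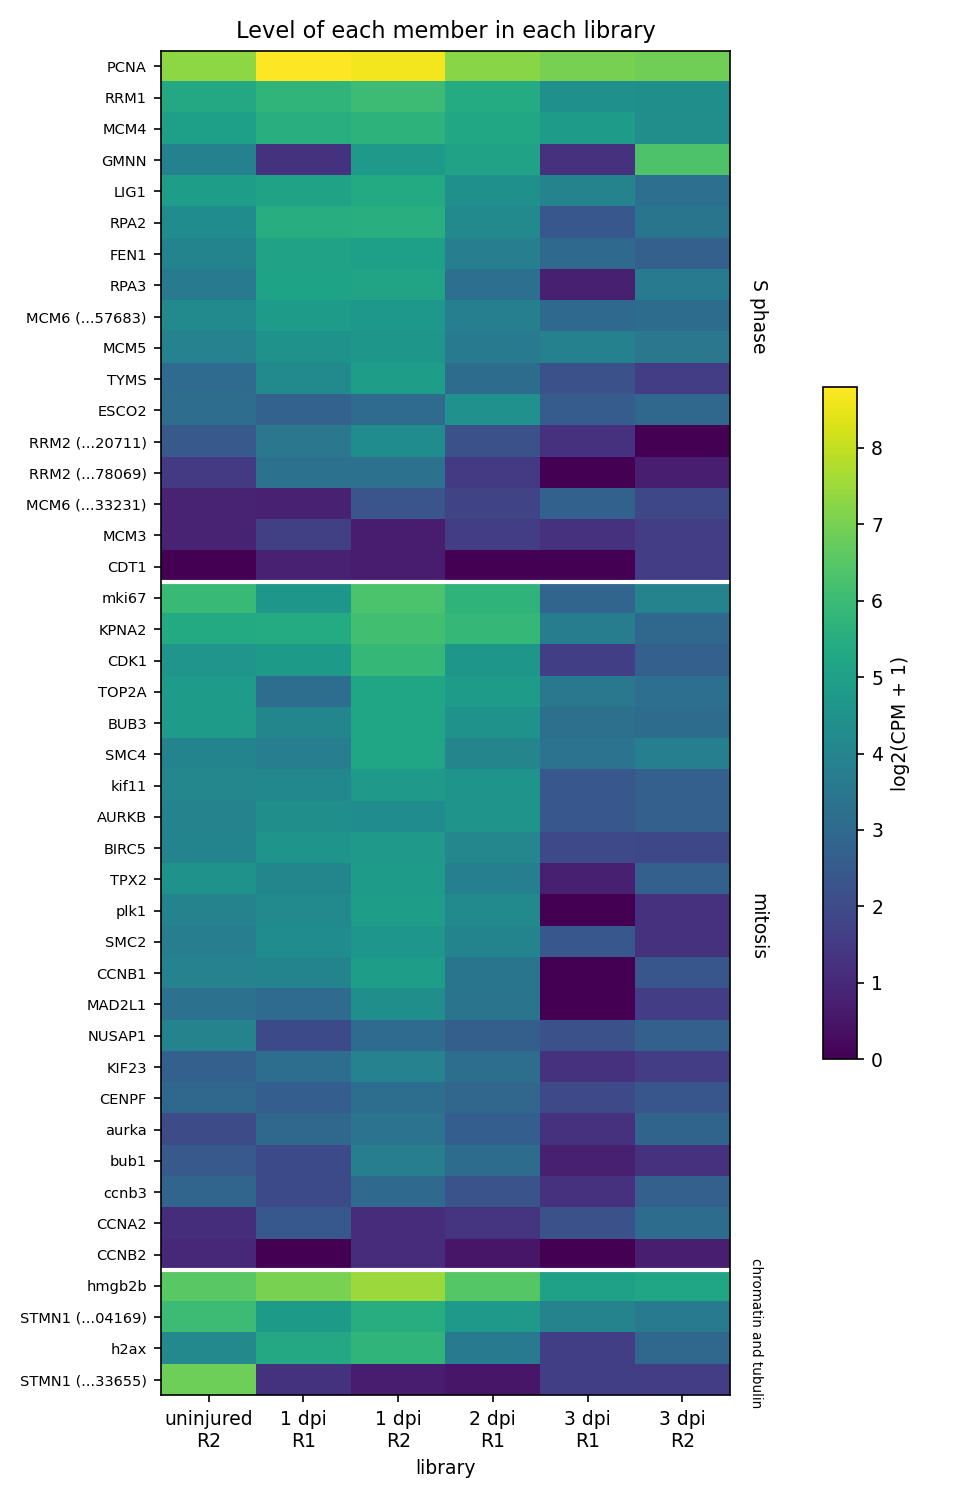
Level of all 43 identifiers as log2(CPM + 1), 1 row per identifier and 1 column per library, in blocks for S phase, mitosis and chromatin and tubulin; duplicated symbols carry the last digits of their identifier. Most rows are brightest in a 1 dpi library and darkest in a 3 dpi library. In several mitosis rows, among them mki67 and TOP2A, replicate 1 of 1 dpi is darker than the uninjured library. GMNN is brightest in replicate 2 of 3 dpi (80.9 CPM) and STMN1 (ENSDARG00000033655) in the uninjured library (114 CPM).

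The kinases that drive entry into mitosis were among the members that fell. CDK1 (ENSDARG00000087554), the central mitotic kinase, stood at 22.9 CPM in the uninjured library, 26.4 and 57.3 CPM at 1 dpi, 24.4 CPM at 2 dpi, and 2.12 and 5.49 CPM at 3 dpi. The log2 fold change from 1 to 3 dpi was -3.53 (SE 0.73, edgeR adjusted p = 0.00113). CCNB1 (ENSDARG00000051923), its cyclin partner, stood at 13.8 CPM uninjured, 14.7 and 28.9 CPM at 1 dpi, 9.63 CPM at 2 dpi, and 0 and 4.12 CPM at 3 dpi, a change of -3.51 (SE 0.94, edgeR adjusted p = 0.0125). The polo-like kinase gene plk1 (ENSDARG00000058471) stood at 14.3 CPM uninjured, 17.6 and 28.9 CPM at 1 dpi, 17 CPM at 2 dpi, and 0 and 1.37 CPM at 3 dpi. Its 2 counts at 3 dpi against 74 at 1 dpi were 34.4-fold lower with a 95% counting interval of 9.19 to 289 (edgeR adjusted p = 0.00113).

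The other cyclins of the list were low. CCNA2 ranged from 1.16 to 7.55 CPM, ccnb3 from 1.41 to 6.95 CPM and CCNB2 from 0 to 1.16 CPM. CCNA2 and ccnb3 had changes of 0.89 and -0.64 with SEs of 1.55 and 1.2 (edgeR adjusted p = 0.738 and 0.756), and CCNB2 did not pass the filter.

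Among spindle and chromosome passenger genes BIRC5 and TPX2 fell, while AURKB and kif11 were not called. BIRC5 (ENSDARG00000075621), survivin, had 14.6 CPM uninjured, 22.8 and 25.5 CPM at 1 dpi, 15.9 CPM at 2 dpi, and 2.83 and 2.74 CPM at 3 dpi, and fell by 3.15 (SE 0.85, edgeR adjusted p = 0.0125). TPX2 (ENSDARG00000078654), which activates aurora A on the spindle, had 21.8 CPM uninjured, 15.4 and 27.8 CPM at 1 dpi, 13 CPM at 2 dpi, and 0.707 and 5.49 CPM at 3 dpi, a change of -2.91 (SE 0.85, edgeR adjusted p = 0.0212). AURKB (ENSDARG00000037640), the kinase that works with survivin, had 14.1 CPM uninjured, 19.8 and 18.5 CPM at 1 dpi, 22.6 CPM at 2 dpi, and 4.24 and 5.49 CPM at 3 dpi. The spindle motor gene kif11 (ENSDARG00000010948) had 15.9 CPM uninjured, 16.1 and 26.1 CPM at 1 dpi, 22.6 CPM at 2 dpi, and 4.24 and 5.49 CPM at 3 dpi. AURKB and kif11 kept their 1 dpi range at 2 dpi or exceeded it, and their changes to 3 dpi of -2.04 and -2.17 were not called (edgeR adjusted p = 0.0840 and 0.0599). KPNA2 (ENSDARG00000038066), an importin also used outside mitosis, had 41.0 CPM uninjured, 41.1 and 68.9 CPM at 1 dpi, 56.6 CPM at 2 dpi, and 12 and 6.86 CPM at 3 dpi, and fell by 2.54 (SE 0.60, edgeR adjusted p = 0.00475).

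Of the checkpoint genes, MAD2L1 (ENSDARG00000004713) was at 8.87 CPM uninjured, 7.34 and 19.7 CPM at 1 dpi, 9.40 CPM at 2 dpi, and 0 and 2.06 CPM at 3 dpi. It passed (edgeR adjusted p = 0.0233) on 3 counts at 3 dpi against 44 at 1 dpi, 13.6-fold lower with a 95% counting interval of 4.37 to 68.6. BUB3 (ENSDARG00000075883) was at 27.8 CPM uninjured, 15.4 and 35.3 CPM at 1 dpi, 21.5 CPM at 2 dpi, and 8.48 and 7.55 CPM at 3 dpi, a change of -1.68 that was not called (edgeR adjusted p = 0.106).

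The remaining mitosis members were covered thinly and none was called. The kinesin gene KIF23 of cytokinesis was at 5.51 CPM uninjured, 8.07 and 13.9 CPM at 1 dpi, 8.06 CPM at 2 dpi, and 1.41 and 2.06 CPM at 3 dpi (edgeR adjusted p = 0.0921). The checkpoint kinase gene bub1 had 3 counts at 3 dpi against 26 at 1 dpi, 8.06-fold lower with a 95% counting interval of 2.47 to 41.6 (edgeR adjusted p = 0.128). The kinetochore gene CENPF, the spindle kinase gene aurka and the spindle gene NUSAP1 had changes of -0.998, -1.19 and -0.30 with SEs of 1.06, 1.1 and 0.98. NUSAP1 was highest in the uninjured library, at 14.4 CPM.

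Of the genes that shape mitotic chromosomes SMC2 and mki67 fell, while SMC4 and TOP2A were not called, and differences between these genes were not tested. SMC2 (ENSDARG00000017744), a condensin subunit, was at 12.5 CPM uninjured, 18.4 and 23.7 CPM at 1 dpi, 14.6 CPM at 2 dpi, and 4.24 and 1.37 CPM at 3 dpi, and fell by 2.89 (SE 0.88, edgeR adjusted p = 0.0275). Its partner SMC4 (ENSDARG00000038882) was at 14.5 CPM uninjured, 12.5 and 34.7 CPM at 1 dpi, 15.2 CPM at 2 dpi, and 9.19 and 13 CPM at 3 dpi. For SMC4 the libraries of 3 and 1 dpi overlapped, and the change of -1.14 was within their spread (edgeR adjusted p = 0.298). TOP2A (ENSDARG00000024488), the topoisomerase that untangles chromosomes, was at 27.1 CPM uninjured, 8.07 and 35.3 CPM at 1 dpi, 27.8 CPM at 2 dpi, and 10.6 and 8.23 CPM at 3 dpi. It overlapped between the time points too, with a change of -1.21 (edgeR adjusted p = 0.257), and 1 well held 80.0% of its 15 counts in replicate 1 of 3 dpi. The proliferation marker mki67 (ENSDARG00000091150), a coat protein of mitotic chromosomes, was at 59.5 CPM uninjured, 24.2 and 78.7 CPM at 1 dpi, 51.9 CPM at 2 dpi, and 6.36 and 14.4 CPM at 3 dpi, and fell by 2.39 (SE 0.60, edgeR adjusted p = 0.00740).

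The chromatin genes fell as well. The gene h2ax (ENSDARG00000029406), a histone variant used in DNA damage signalling, stood at 16.5 CPM in the uninjured library, 38.9 and 53.3 CPM at 1 dpi, 11.4 CPM at 2 dpi, and 2.12 and 6.86 CPM at 3 dpi, a change of -3.46 (SE 0.73, edgeR adjusted p = 0.00142). The high mobility group gene hmgb2b (ENSDARG00000053990) stood at 93.4 CPM uninjured, 131 and 178 CPM at 1 dpi, 87.3 CPM at 2 dpi, and 31.8 and 36.4 CPM at 3 dpi, a change of -2.23 (SE 0.52, edgeR adjusted p = 0.00389). Its transcript was found in 8.84% of thinned wells of the uninjured library, 11.3% and 17.3% at 1 dpi, 5.97% in the 2 dpi library, and 0.398% and 2.33% at 3 dpi.

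STMN1, stathmin, a protein that destabilises microtubules, stands at 2 identifiers, and the table does not say which of them is stmn1a. The first (ENSDARG00000004169) was at 64.1 CPM uninjured, 26.4 and 43.4 CPM at 1 dpi, 26.2 CPM at 2 dpi, and 14.1 and 11.7 CPM at 3 dpi, a change of -1.46 that was not called (edgeR adjusted p = 0.101). The second (ENSDARG00000033655) was at 114 CPM in the uninjured library and between 0.448 and 2.12 CPM in every injured library.

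Neither adjacent step gave many calls. Between 2 and 1 dpi edgeR and DESeq2 each called 0 of the 39 members, and 3 (PCNA, RPA3 and h2ax) had an unadjusted edgeR p under 0.05. Over all genes 0.00719% were called lower and 0.151% higher. The median log2 fold change, 2 dpi minus 1 dpi, was -1.2 for the S-phase members and -0.46 for the mitosis members, against 0.06 over all genes. Between 3 and 2 dpi plk1 was the single member called lower (edgeR adjusted p = 0.0365), against 0.122% of all genes. It was not called with DESeq2, with RLE factors or library size in place of TMM scaling, in thinned wells, without wells over 50000 transcripts or in wells of at least 1000. The medians of that step were -0.93 for S phase and -2.25 for mitosis, against 0.16 over all genes. In it 14 of the 39 members had an unadjusted edgeR p under 0.05, beside the 3 between 2 and 1 dpi. The shares of all genes at that threshold are not given, so whether the members exceed them was not tested. The 2 dpi library stands alone and was assumed to vary like the replicated groups.

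Between 1 dpi and uninjured larvae 1 member was called, the second STMN1 identifier, which was lower at 1 dpi (log2 fold change -6.81, edgeR adjusted p = 2.86e-09). Of all genes 11.9% were called lower and 2.47% higher, and without the wells over 50000 transcripts 2.86% were lower and 0.282% higher. The S-phase and mitosis members had medians of 0.90 and 0.58, against -0.21 over all genes. With either 3 dpi library left out of the fit more members were called, and so were more of all genes. The median log2 fold change over the tested members was then 0.67 without replicate 1 and 0.83 without replicate 2. Over all genes it was -0.22 and 0.0017 in the same order. Skeletal muscle markers, whose source in the sort was not tested, summed to 40.4 and 42.3 CPM at 1 dpi, against 56061 CPM uninjured. Neural markers summed to 44.8 and 75.3 CPM at 1 dpi, against 673 CPM uninjured. Without the wells over 50000 transcripts the uninjured sums were 10069 and 469 CPM. The neural list contains both STMN1 identifiers, so its sums hold the STMN1 counts themselves. The part of muscle and other neural transcripts in the STMN1 difference was not tested.

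Some cell cycle genes outside the 48 also fell between 1 and 3 dpi. Of 27 tested identifiers of other S-phase genes 5 were lower at 3 dpi and none higher, with a median log2 fold change of -1.88, beside the 3.47% of all genes called lower. By size of change the best covered were dhfr, dihydrofolate reductase (-4.22), chaf1a of the histone chaperone CAF-1 (-3.09), GINS4 of the helicase complex (-2.74) and DNMT1, the maintenance DNA methyltransferase (-2.35). Of 28 tested identifiers of other mitosis genes 6 were lower and none higher, with a median of -1.91. Here CKS1B (-2.87), tacc3 (-2.80), the condensin gene NCAPD2 (-2.65) and the kinase gene PBK (-2.41) led, all with an edgeR adjusted p under 0.05. DESeq2 called 2 of the S-phase list and 0 of the mitosis list, with 8 and 7 at an unadjusted p under 0.05, and edgeR with library size in place of TMM scaling called 0 of either, with 10 and 7. The unadjusted counts have no background share beside them.

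Genes that hold the cycle back did not pass the test. Of 16 tested inhibitor and antiproliferative genes, edgeR and DESeq2 called 0 between 3 and 1 dpi, and 0 had an unadjusted p under 0.05 in either. Their median was -0.14, and their sum was 3431 CPM in the uninjured library, 5195 and 5909 CPM at 1 dpi, 6564 CPM at 2 dpi, and 6249 and 5419 CPM at 3 dpi. The libraries of 3 and 1 dpi overlap in this sum.

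The make-up of the sorted wells also differed between 3 and 1 dpi. Macrophage markers summed to 5171 and 4495 CPM at 3 dpi and 10187 and 8949 CPM at 1 dpi, with 3 of 16 tested identifiers lower. Granulocyte markers summed to 5240 and 6957 CPM at 3 dpi and 3495 and 2684 CPM at 1 dpi, with 1 of 8 higher. The granulocyte list contains MMP9 and mmp13a, and which cells expressed these was not tested. Keratinocyte markers summed to 12386 and 2094 CPM at 3 dpi and 1825 and 1580 CPM at 1 dpi, with 4 of 11 higher. Of the other marker lists, 5 of 6 metaphocyte, 7 of 15 fibroblast, 6 of 17 skeletal muscle and 1 of 7 erythroid markers were called higher at 3 dpi and 2 of 7 microglia markers lower, beside the 5.55% of all genes called higher and 3.47% lower. By edgeR 0 of 4 muscle precursor, 0 of 5 endothelial, 0 of 2 lymphoid and precursor and 0 of 12 neural markers were called. In wells pooled per library, fewer cycling cells and more cells of another type cannot be told apart, so the wells were split by marker.

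Wells were first split by whether any of their transcripts, counted before thinning, came from the mpeg1 gene (MPEG1, ENSDARG00000055290), which is found more easily in a deep well. It was found in 209 of 294 wells of the uninjured library, 165 of 266 and 161 of 196 at 1 dpi, 240 of 352 in the 2 dpi library, and 91 of 251 and 119 of 300 at 3 dpi. Within these wells the share in cycle was 8.61% in the uninjured library, 10.9% and 12.4% at 1 dpi, 6.67% in the 2 dpi library, and 3.30% and 0.840% at 3 dpi. In the wells where it was not found the share was 4.71% in the uninjured library, 13.9% and 17.1% at 1 dpi, 2.68% in the 2 dpi library, and 0.625% and 2.21% at 3 dpi. The shares at 3 dpi rest on 3 and 1 cycling wells with MPEG1 and on 1 and 4 without it, replicates 1 and 2 in that order. On these few wells the share was lower at 3 dpi both with and without the macrophage gene. With MPEG1 the exact 95% interval of replicate 1 of 3 dpi (0.685% to 9.33%) overlapped those of 1 dpi (6.59% to 16.7% and 7.76% to 18.5%). That of replicate 2 (0.0213% to 4.59%) did not. Restricted to wells with an MPEG1 transcript, the difference between 3 and 1 dpi was -9.60 percentage points (exact permutation p = 0.333, the smallest possible), and it was -10.1 where MPEG1 was looked for after thinning, an alternative chosen after seeing the data. On counts summed over wells with MPEG1, edgeR called 12 of 37 tested members lower and 0 higher, against 1.46% of all genes lower and 1.35% higher. Wells with the gene were deeper, so their classes differ in depth before thinning, with medians of 3911 and 9373 transcripts at 1 dpi.

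Wells with a transcript of npsn (ENSDARG00000010423), a granulocyte protease gene, again counted before thinning, numbered 17 in the uninjured library, 66 and 25 at 1 dpi, 121 in the 2 dpi library, and 89 and 119 at 3 dpi. Of these, 2 wells (11.8%) were cycling in the uninjured library, 8 (12.1%) and 3 (12%) at 1 dpi, 4 (3.31%) in the 2 dpi library, and 0 and 2 (1.68%) at 3 dpi, where the exact 95% interval of 0 of 89 reaches 4.06%. In wells without it the share was 7.22% in the uninjured library, 12% and 13.5% at 1 dpi, 6.49% in the 2 dpi library, and 2.47% and 1.66% at 3 dpi. The intervals of wells with and without npsn overlap in every library. Some npsn wells also held MPEG1. At 1 dpi 3 of 31 wells (9.68%) and 2 of 18 (11.1%) with npsn alone were cycling, and 5 of 35 and 1 of 7 with both genes. Over the 5 injured libraries it was 8 of 284 with npsn alone (2.82%) and 9 of 136 with both (6.62%). It was 49 of 640 with MPEG1 alone (7.66%) and 20 of 305 with neither (6.56%). These pools mix time points, and no test is given.

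**Figure D5:**
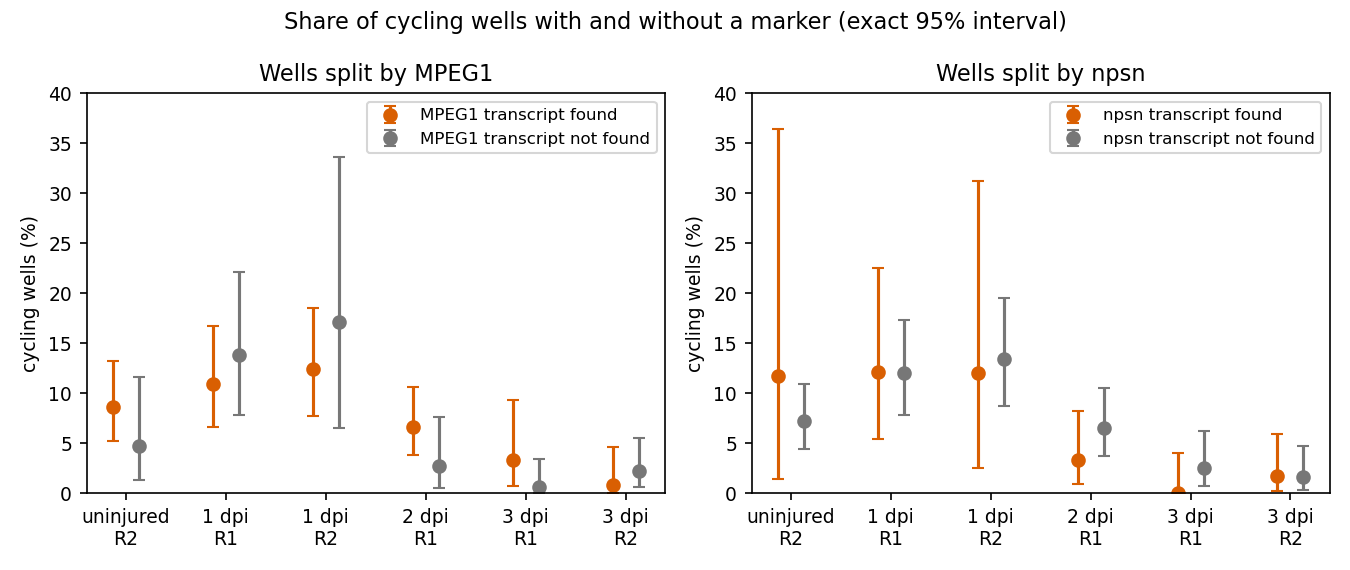
Percentage of cycling wells (thinned to 1000 transcripts) in each library, among wells with and without a transcript of MPEG1 (left) or npsn (right); points are libraries and bars exact 95% intervals. The 3 dpi points lie below the 1 dpi points in all 4 classes, and the intervals of the classes overlap within each library.

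Wells were also divided by the number of npsn transcripts left after thinning, so that some wells with npsn in their full counts stand in the lowest band. Over the 5 injured libraries, 78 of 1083 thinned wells with no npsn transcript among their 1000 were cycling (7.20%), 4 of 88 with 1 to 2 (4.55%), 4 of 157 with 3 to 9 (2.55%) and 0 of 37 with 10 or more, for which the exact 95% interval reaches 9.49%. The npsn wells come mostly from 2 and 3 dpi, where fewer wells of every class were cycling. At 1 dpi alone 53 of 410 wells in the lowest band were cycling (12.9%), 3 of 17 with 1 to 2 (17.6%), 2 of 27 with 3 to 9 (7.41%) and 0 of 8 with 10 or more, with intervals that overlap. These bands were chosen after the values were seen, and wells of 1 library are not replicates, so no test is given.

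Wells counted as cycling also carried other cell cycle genes, which did not enter the count. Other S-phase genes averaged 1.07 transcripts per 1000 in cycling wells and 0.226 in other wells, over the 6 libraries. Other mitosis genes averaged 1.42 in cycling wells and 0.198 in other wells, and the chromatin and tubulin members 0.668 and 0.122. Each was higher in cycling wells in 6 of 6 libraries (two-sided exact permutation test over library pairs, p = 0.03125, the smallest 6 pairs allow; 0.0714 after Benjamini-Hochberg adjustment over 16 lists). Granulocyte markers, a list with MMP9 and mmp13a in it, averaged 1.3 in cycling wells and 5.86 in other wells. They were lower in 6 of 6 libraries, with the same p-values. Keratinocyte (1.74 in cycling wells and 3.10 in other wells), skeletal muscle (1.48 and 2.78) and fibroblast markers (0.265 and 0.705) were lower in 6 of 6 libraries too, also with the same p-values. The skeletal muscle and fibroblast means rest mostly on the uninjured library, whose cycling wells held 193 and 33 such transcripts. In each injured library the cycling wells held 0 or 1 transcript of either list. Macrophage markers averaged 6.77 in cycling wells and 7.24 in other wells (exact permutation p = 0.625).

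In a gene-level comparison of cycling with other wells, with the library as a block and the S-phase and mitosis members left out, edgeR called 14 of 1202 genes higher (1.16%) and 51 lower (4.24%) in cycling wells. With library size in place of TMM scaling the split was 24 higher and 17 lower. Both chromatin and tubulin members that could be tested were higher: STMN1 (ENSDARG00000004169) with a log2 fold change of 4.02 (SE 0.57, edgeR adjusted p = 1.32e-09) and hmgb2b with 1.41 (SE 0.38, edgeR adjusted p = 0.00797). Of 5 tested genes of the granulocyte list 4 were lower, the gelatinase gene MMP9 (-2.46), the collagenase gene mmp13a (-3.22), the peroxidase gene EPX (-2.37) and npsn (-1.58). Whether the MMP9 and mmp13a transcripts on this list came from granulocytes was not tested. Lower calls were not limited to this list, with 2 of 4 keratinocyte markers and 1 of 11 macrophage markers called. The macrophage call was MFAP4 (ENSDARG00000088745, -0.80, edgeR adjusted p = 0.0436). Of the 11 macrophage markers 10 lay below 0, with a median of -0.31 against -0.20 over all genes. These granulocyte calls depend on the setting, including the full-count sums described below. With wells thinned to 2000 none of the 4 was called (edgeR adjusted p = 0.513, 0.467, 0.403 and 0.628 in the same order), and in wells with an MPEG1 transcript mmp13a was called (-2.07) and MMP9 was not (-0.60, edgeR adjusted p = 0.724). Without replicate 1 of 3 dpi mmp13a (edgeR adjusted p = 0.137), EPX (0.377) and npsn (0.483) were not called. The same 3 were not called without replicate 2 of 3 dpi (0.0564, 0.234 and 0.215), nor were EPX (0.174) and npsn (0.104) without the uninjured library.

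No identifier of the other S-phase or mitosis genes had enough counts in the thinned sums to be tested in that comparison. When all transcripts of the same wells were summed, leaving out wells over 50000 transcripts, an alternative chosen after seeing this, 10 of 11 tested other S-phase identifiers and 7 of 7 other mitosis identifiers were higher in cycling wells, against 3.14% of all 5769 genes called higher and 4.35% called lower. The median log2 fold changes were 2.39 and 3.43. Here and on thinned sums the low-count filter keeps a gene with enough counts in either class of wells alone. Of 40 identifiers in each list 11 and 7 passed it, so those high in cycling wells could enter through that class. The numbers called therefore cannot be read as support for the count of cycling wells. The condensin genes NCAPD3 (5.02) and NCAPD2 (4.12) led the mitosis list, and GINS1 (2.79) and chaf1a (2.62) the S-phase list. ASF1B was the one not called (0.52, edgeR adjusted p = 0.602). In the same fit 2 of 6 tested granulocyte markers were lower, mmp13a (-3.48) and nccrp1 (-0.71). There MMP9 (-2.31), EPX (-3.11) and npsn (-2.41) were not called (edgeR adjusted p = 0.156, 0.148 and 0.163). Of the inhibitors, BTG1 was the 1 of 7 called lower in cycling wells on thinned sums (-0.62), and 0 were called with library size in place of TMM scaling, with 5 or more transcripts as the threshold, with wells thinned to 2000 or in wells with MPEG1. On full counts 4 of 13 were lower, CDKN1B (-1.2), tob1b (-0.97), CCNG2 (-0.68) and BTG1 (-0.52).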

How the data were processed

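The deposited values are the authors' expected counts, transcript numbers per gene and well that are not all whole. Per the submitters' processing notes, BWA was used and Zv9 was the build; the sources used here do not give the counter or annotation. Values were rounded to whole numbers and spike-ins (1.19% to 16.1% of a library) left out. Of 25130 gene identifiers 19001 (75.6%) had a symbol in the identifier table, and coordinates and sequences are not used here. No doublet caller was run, since each well received 1 sorted event.

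Wells with at least 500 transcripts were kept, and thinned to 1000 for shares. Counts summed per library (6 libraries, 4 groups) were tested with edgeR 4.0.16 in R 4.3.3 (TMM scaling, filterByExpr, robust quasi-likelihood, Benjamini-Hochberg adjustment over 13901 genes, calls at 0.05, biological coefficient of variation 45.4%, 2 residual degrees of freedom), with DESeq2 1.42.0 as an alternative. Standard errors came from the fold change and F statistic. The fits were checked on simulated counts. Cycling and other wells were compared on thinned sums (coefficient of variation 20.4%, 5 residual degrees of freedom). Replicates of 1 dpi and of 3 dpi were not copies of each other: chi-square over degrees of freedom was 11.7 and 19.1. Per-library values are given for members called between 3 and 1 dpi or reaching 20 CPM in a library, and other cell cycle genes are named up to 5 a list at an average log2 CPM of at least 3 (named inhibitors and, in the comparison of wells, named genes were chosen after their values were seen). The members and lists were chosen with earlier results of these data known.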

Additional observations from a re-analysis of the deposited data

How the results depend on the processing

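The shares of S-phase, mitosis and cycling wells were lower at 3 dpi than at 1 dpi under every threshold, thinning depth, choice of members and choice of wells tried. The exact test cannot pass 0.05 in any of them. Differences in the cycling share ran from -3.81 percentage points (5 or more transcripts) to -25.3 (no thinning). The difference in level per cycling well, 0.88 as reported, changed sign to -0.62 with 2 or more transcripts, -9.11 without thinning and -0.30 with wells thinned to 2000. Of the 17 members called between 3 and 1 dpi, DESeq2 called 9, library size alone 2, thinned wells 7 (of 16 tested) and the 1 and 3 dpi libraries alone 0. In thinned wells 678 of all 5578 genes were called. Leaving out a library gave 0 to 27 calls among all tested members, not only these 17 and not all of them lower. Calls over all genes changed as well. Some of these fits leave 1 library at 1 or 3 dpi, so their counts cannot be compared with the 17. The median log2 fold change over the members ran from -2.23 to -2.03 when a library was left out. The 1 call between 3 and 2 dpi became 0 with DESeq2, RLE factors, library size, thinned wells, no wells over 50000 or wells of at least 1000. It became 2 with no filter and 3 in wells with MPEG1, where more of all genes were called too. Leaving out a library changed it as well. Between 1 dpi and uninjured, leaving out a 3 dpi library changed the number of calls for the members and for all genes. The median over the members ran from 0.45 to 0.83 when a library was left out, beside 0.66 with all 6. Of other cell cycle genes between cycling and other wells, 0 were tested, 1 was called when thinned to 2000 and 17 of 18 with full counts. The low-count filter can admit such genes through cycling wells alone. Uncalled members changed sign: NUSAP1 to 0.12 without npsn wells and, leaving out a library, from -0.76 (1 dpi replicate 1) to 0.48 (1 dpi replicate 2), ESCO2 to 0.26 without npsn wells, TOP2A from -1.87 (1 dpi replicate 1 left out) to 0.13 (1 dpi replicate 2 left out), STMN1 (ENSDARG00000033655) to -0.11 thinned and -0.56 in MPEG1 wells. GMNN ran from -3.09 (3 dpi replicate 2 left out) to 4.50 (1 dpi replicate 2 left out). The cause of these changes was not tested.

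The replicate number is not stated to pair libraries, and only 2 pairs exist (correlation of deviations 0.34 over 7851 genes). With it as a replicate block 22 members were called between 3 and 1 dpi, 1 between 2 and 1 dpi, 5 between 3 and 2 dpi and 1 between 1 dpi and uninjured. Calls over all 13901 genes rose as well, from 1254 to 1966 between 3 and 1 dpi and from 38 to 224 between 3 and 2 dpi. That fit had 1 residual degree of freedom. At a depth of 1000 the cycling wells at 3 dpi numbered 4 and 5.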

Other observations

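Besides STMN1 and hmgb2b, 12 genes outside the lists were called higher in cycling wells on thinned sums, 3 of them with no symbol. The others, in order of their edgeR adjusted p (all under 0.05), were hmga1a with a log2 fold change of 1.53 (SE 0.23), tuba8l4 with 1.23 (SE 0.21), tuba5 with 1.28 (SE 0.23), BANF1 with 1.75 (SE 0.36), h3f3a with 1.16 (SE 0.26), nutf2l with 1.71 (SE 0.47), ETV4 with 1.42 (SE 0.39), ANP32A with 1.22 (SE 0.38) and NUCKS1 with 1.21 (SE 0.37). Among the 51 called lower, named after their values were seen, were the protease gene CTSK with -2.14 (SE 0.33) and the keratin gene krt4 with -2.72 (SE 0.45).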
